A study of Mus musculus with 11 samples.

Results

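Splicing removes introns from nascent transcripts, and the genes described here encode the factors that choose the splice sites and the particles that cut and join there. They were found in the deposited expression table by symbol: the Srsf, Hnrnp, Sf3a and Sf3b genes, the Snrp genes with a suffix from a to g, the Snrnp genes, and U2af1, U2af2, Tra2a, Tra2b, Srrm1 and Srrm2. The rule found 64 of 24138 loci, and it reads symbols alone. All 64 had a mean of at least 1 FPKM (fragments per kilobase of transcript, scaled to the size of the library) over the 5 libraries and were among the 12672 loci tested, so none was lost to the filter on low values. The libraries were made from total RNA of the cortex of mouse embryos at E14.5. The 2 conditional knockout libraries, called cKO, were labelled Chd8 c/c with Emx1-cre. Chd8 encodes a chromatin remodeller that is a high-confidence autism gene, and the Emx1 driver acts in progenitors of the dorsal telencephalon and their progeny, so that cells of other lineages in the dissected tissue keep the gene. The 3 controls carried floxed alleles and no Cre: control 1 was labelled Chd8 c/+, and controls 2 and 3 Chd8 c/c. The labels do not say how many embryos went into a library, so p-values measure the spread between these libraries, which may be technical.

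SR proteins are RNA-binding proteins with a tail rich in arginine and serine, and they mostly promote the use of the exons they bind. The heterogeneous nuclear ribonucleoproteins (hnRNPs) coat nascent RNA and often oppose them. The small nuclear ribonucleoproteins (snRNPs) form the spliceosome itself: U1 binds the start of an intron, U2AF and the U2 particle bind its end and branch site, and the tri-snRNP with U5 then joins them. Each of the particles except U6 carries a ring of Sm proteins. In the developing cortex, splicing programmes differ between progenitors and neurons, and many SR and hnRNP genes limit their own RNA through exons that target it for decay.

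Chd8 itself checked the labels. It was 31.5, 30.02 and 31.8 FPKM in controls 1 to 3 against 19.3 and 15.1 in cKO 1 and 2, so the groups did not overlap. Its log2 change was -0.83 (SE 0.15), yet it did not pass over all loci either (limma adjusted p = 0.575), while the authors' deposited table gives it a q-value of 0.00331. One protocol field of these samples speaks of an Eed knockout, whereas titles and genotypes name Chd8. The summed FPKM of a library ran from 418191 to 484296, and the loci at 1 FPKM or more numbered 12237 to 12717. The depth is unknown, because the table holds no counts and 99.7% of the 2000 lowest nonzero values of control 1 differed from each other. Across loci, which are not independent replicates, Pearson correlations of log2 values between libraries were 0.880 to 0.933. Values are on the FPKM scale unless a log2 change is named, which is cKO minus control on log2(FPKM + 1).

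No splicing factor gene passed the test between cKO and control. The comparison asks which transcripts differ after loss of Chd8 in cells of the Emx1 lineage. With limma and Benjamini-Hochberg adjustment over all loci, 0 of 64 had an adjusted p under 0.05 (lowest adjusted p = 0.575), where 0.0473% of all tested loci did (0.0158% as higher and 0.0316% as lower). At an unadjusted p under 0.05 there were 2, Srsf10 and Snrpf, both higher in the cKO, where 7.45% of all tested loci passed in either direction, 3.08% as higher and 4.37% as lower. That count of 2 became 0 without control 1, control 2, control 3 or cKO 2, and 6 without cKO 1; lower genes, 0 with all libraries, were 7 without cKO 1 and 3 without control 1. In either direction, the share of all loci at that p was 11.7% without cKO 1 and 15.7% without control 1. That share was 4.95% without control 2 and 3.14% without control 3, below the 7.45% with all libraries. In the authors' deposited table, 0 of 64 were marked significant, against 4.21% of the loci that their comparison could test. The lowest q-value there was 0.0618, for Sf3b2. The median log2 change of the 64 genes was -0.03, beside a median of -0.02 for all tested loci. Both cKO libraries lay above every control for 13 genes (20.3%) and below every control for 7 (10.9%), and 44 overlapped. The same was true of 13.4% and 15.6% of all tested loci. With fewer libraries such separation was more frequent over all loci. Without cKO 1, 24 of the 64 genes lay above and 20 below, against 27.2% and 34.7% of all loci tested. Genes above numbered 16 without control 1 and 13 without cKO 2, against 27.8% and 21.4% of all loci. Genes below numbered 26 without control 1 and 11 without cKO 2, against 28.8% and 22.04% of all loci. The split of 13 and 7 became 11 and 10 with libraries scaled to their summed FPKM, against 12.87% and 14.56% of all loci. It became 13 and 4 after quantile normalization, against 16.52% and 12.62% of all loci.

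The intervals show how large a difference these libraries could have hidden. For 55 of the 64 genes the 95% interval of the log2 change lay within a 2-fold difference in either direction (85.9%, against 77.5% of all tested loci). For 27 genes (42.2%) it lay within a 1.5-fold difference, against 32.9% of all tested loci. Intervals of all 20 hnRNP genes stayed within 2-fold. The widest interval belonged to Srsf12, the least abundant member, with a log2 change of 0.12 between -1.07 and 1.31. The other 8 genes whose intervals reached past 2-fold did so downwards: Snrpd2, Snrnp70, Sf3b2, U2af2, Snrnp35, Snrpb, Srsf4 and Sf3a3, with lower ends from -1.34 for Snrpd2 to -1.04 for Sf3a3 on the log2 scale.

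**Figure D1:**
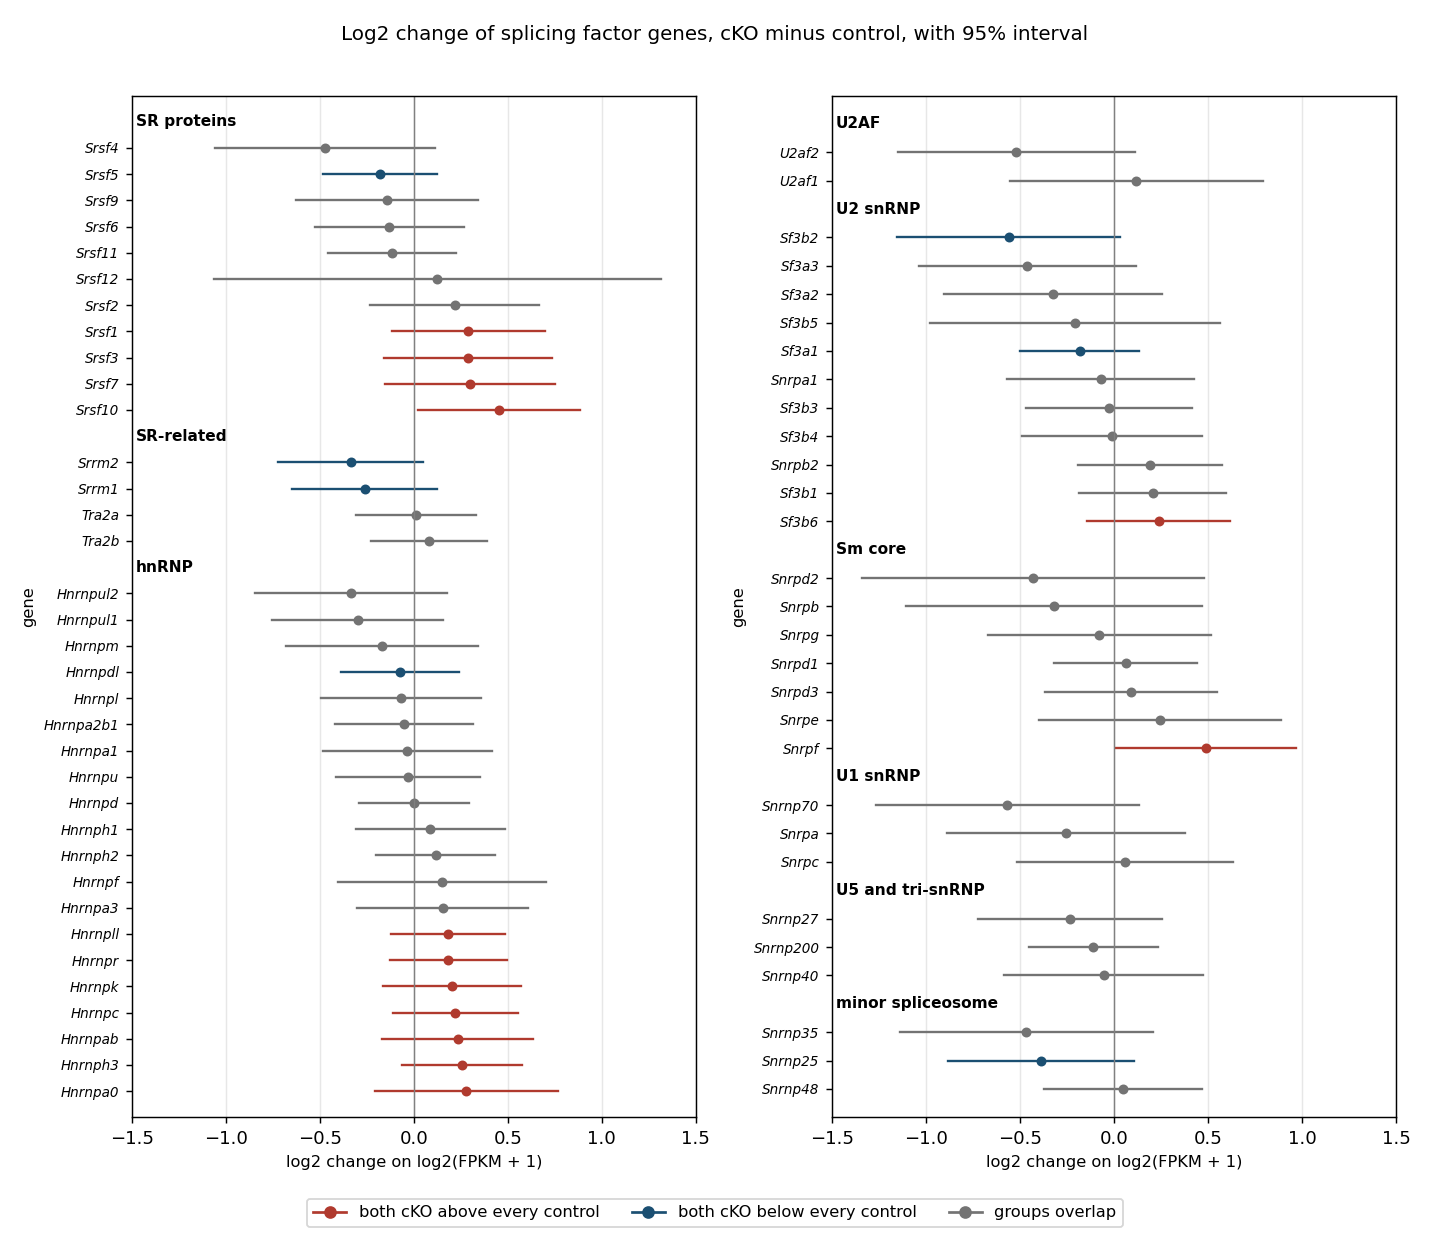
Log2 change of each of the 64 genes, cKO minus control, on log2(FPKM + 1). Points are the fitted changes and lines their 95% intervals from limma. Red marks the 13 genes with both cKO libraries above every control and blue the 7 with both below. The intervals of Srsf10 and Snrpf lie just above 0, and all others cross it.

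The 2 cKO libraries were unlike in how far single genes lay from the controls. In cKO 2, 30 of the 64 genes lay more than 0.3 log2 units from the control mean, and in cKO 1 there were 3, which were Srsf12, Snrpb and Snrnp25. Over all tested loci the shares were 46.1% in cKO 2 and 24.9% in cKO 1, so cKO 2 stood further from the controls across the whole table. The deviation was larger in cKO 2 for 48 of the 64 genes. Both cKO libraries lay on the same side of the control mean for 46 of 64 genes, and for 71.9% of all tested loci. The controls also differed: 13 genes lay over 0.3 log2 units from the control mean in control 1, 8 in control 2 and 0 in control 3, against 26.6%, 24.9% and 5.33% of all tested loci. For 40 genes (62.5%, against 74.6% of all tested loci) the range among the 3 controls was larger than the change between groups. Together the 64 genes took 1.42%, 1.48% and 1.47% of the summed FPKM in controls 1 to 3 against 1.43% and 1.55% in cKO 1 and 2, so the groups overlapped.

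**Figure D2:**
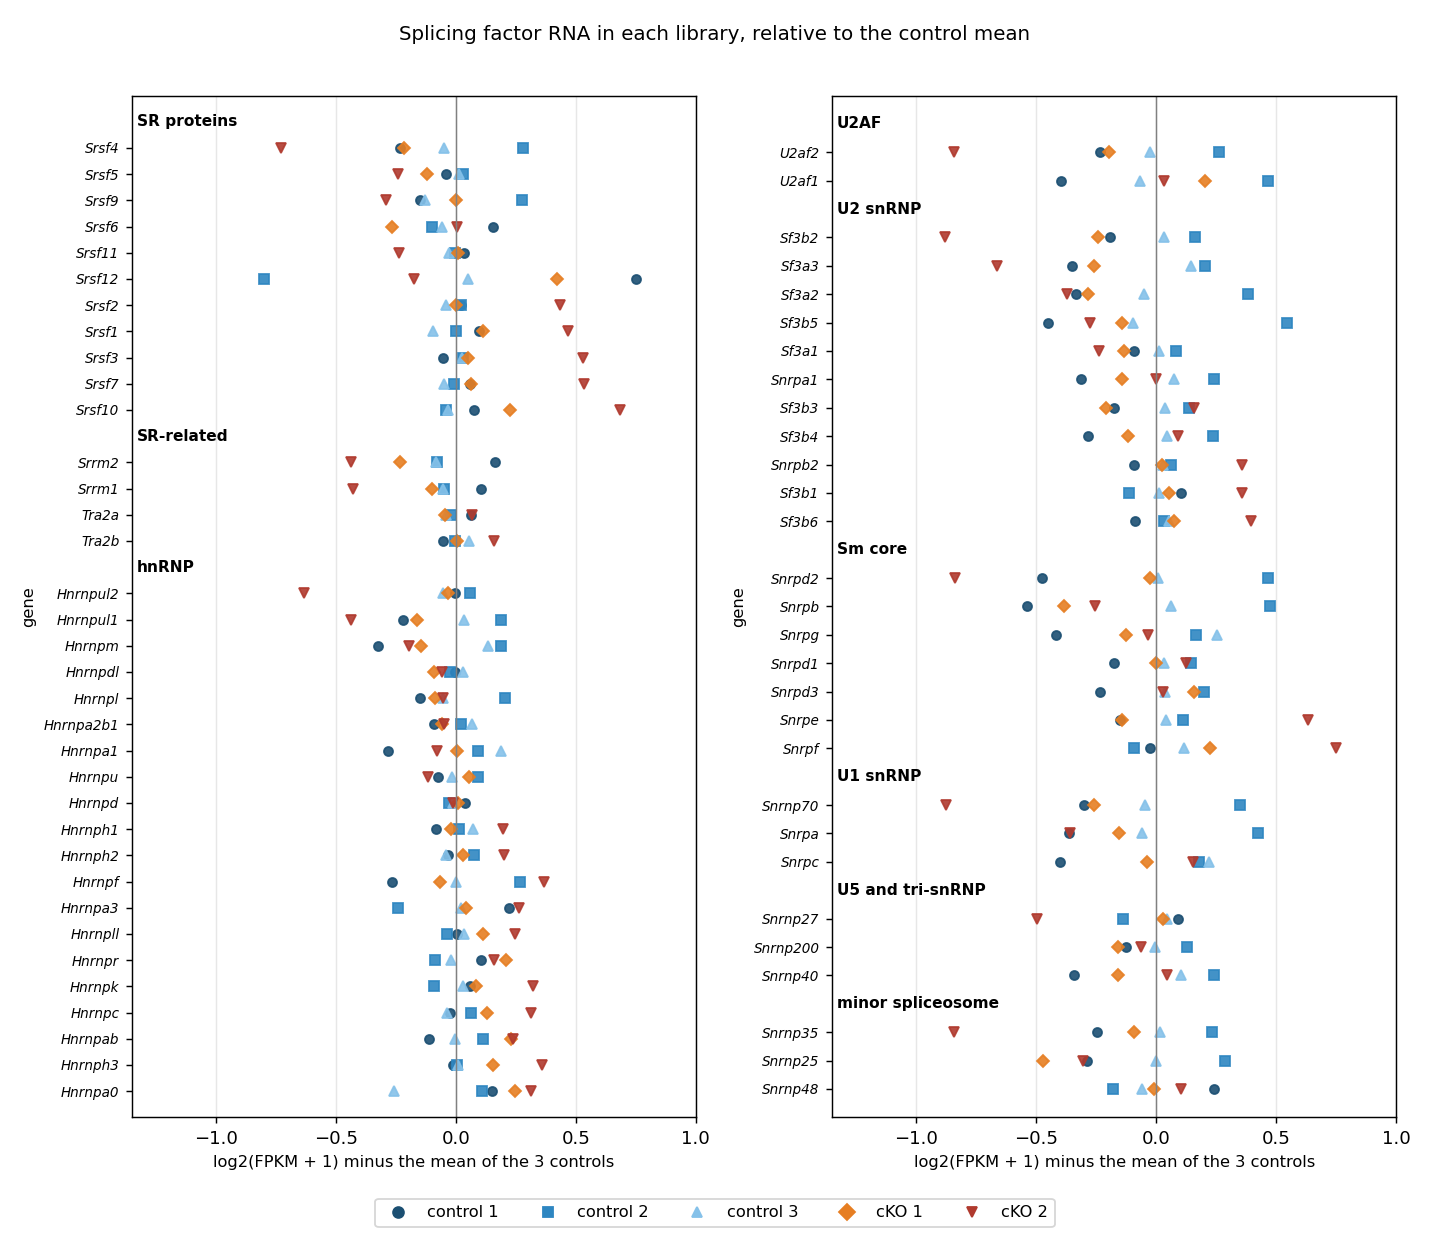
Each gene's log2(FPKM + 1) minus the mean of the 3 controls, with one point per library. Blue symbols are controls, the orange diamond is cKO 1 and the red triangle is cKO 2. In cKO 2, 30 genes lie beyond 0.3 in either direction, against 3 in cKO 1.

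The 2 genes with the highest and the 2 with the lowest log2 changes are described first, since the promoter sequences below are theirs. Srsf10 (locus XLOC_014720, GRCm38 chromosome 4, 135855752 to 135869908) encodes an SR protein that represses splicing in its dephosphorylated form. It was 28.2, 25.9 and 26.05 in controls 1 to 3 against 31.4 and 43.5 in cKO 1 and 2. Both cKO libraries exceeded every control, cKO 2 by far more than cKO 1. The log2 change was 0.45 (SE 0.17, limma unadjusted p = 0.0423, adjusted p = 0.575). Snrpf (XLOC_002279, chromosome 10, 93583029 to 93589658), which encodes a protein of the Sm ring, was 17.4, 16.5 and 19.3 in controls against 20.9 and 30.4 in cKO. Its groups did not overlap either, and cKO 1 lay within 2 FPKM of control 3. The log2 change was 0.49 (SE 0.19, limma unadjusted p = 0.0473, adjusted p = 0.575). By exact permutation (two-sided) of the libraries, Srsf10 and Snrpf each had p = 0.1, below which 10 splits of 3 and 2 libraries cannot go. Other members, among them Srsf1, Srsf5 and Hnrnpdl, had the same exact permutation p. The genes with the lowest changes, Snrnp70 and Sf3b2, had p = 0.3 and p = 0.2 by exact permutation.

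At the other end, Snrnp70 (XLOC_019808, chromosome 7, 45376454 to 45395742), which encodes the U1 protein that contacts SR proteins, was 178, 279.7 and 212 in controls 1 to 3 against 183 and 119 in cKO 1 and 2. The library of cKO 1 lay between controls 1 and 3, and cKO 2 lay below every control. The log2 change was -0.57 (SE 0.28, limma adjusted p = 0.575). Sf3b2 (XLOC_010683, chromosome 19, 5273921 to 5295457), a subunit of the SF3B complex that holds U2 at the branch site, was 141, 180.2 and 165 in controls against 136 and 86.9 in cKO. Both cKO libraries lay below every control, cKO 1 by under 5 FPKM. The log2 change was -0.56 (SE 0.24, limma adjusted p = 0.575). In the authors' deposited table, Sf3b2 had a log2 fold change of -0.54, and Snrnp70 had -0.56 with a q-value of 0.0825.

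The promoter windows of these 4 genes are printed to show what sequence lies at the starts of the genes with the highest and lowest changes. They come from RefSeq on GRCm38.p6, run from 250 bases before to 50 after an annotated start, and are written 5′ to 3′ on the gene's strand. Capitals mark matches to any of the searched motifs on either strand, and windows of 1 gene with several starts can overlap, of which the first is shown.
Srsf10 (chr4:135855821-135856120, plus strand): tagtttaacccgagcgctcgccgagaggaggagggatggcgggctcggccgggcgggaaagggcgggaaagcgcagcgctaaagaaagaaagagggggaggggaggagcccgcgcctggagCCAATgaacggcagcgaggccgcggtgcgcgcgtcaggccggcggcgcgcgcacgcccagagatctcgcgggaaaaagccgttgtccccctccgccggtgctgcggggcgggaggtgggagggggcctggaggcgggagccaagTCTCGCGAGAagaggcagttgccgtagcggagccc
Snrpf (chr10:93589609-93589908, minus strand): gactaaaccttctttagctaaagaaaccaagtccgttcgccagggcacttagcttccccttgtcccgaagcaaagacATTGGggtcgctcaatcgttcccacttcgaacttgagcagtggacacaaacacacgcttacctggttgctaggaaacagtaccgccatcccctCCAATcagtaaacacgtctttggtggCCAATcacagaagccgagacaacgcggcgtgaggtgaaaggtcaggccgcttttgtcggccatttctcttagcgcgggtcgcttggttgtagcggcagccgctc
Snrnp70 (chr7:45395693-45395992, minus strand): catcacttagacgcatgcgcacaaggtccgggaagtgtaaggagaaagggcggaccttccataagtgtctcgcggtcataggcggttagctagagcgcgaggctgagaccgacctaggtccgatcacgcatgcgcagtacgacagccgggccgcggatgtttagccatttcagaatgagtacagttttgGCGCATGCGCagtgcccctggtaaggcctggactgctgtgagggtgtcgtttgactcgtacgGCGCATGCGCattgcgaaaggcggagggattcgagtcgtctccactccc
Sf3b2 (chr19:5295406-5295705, minus strand): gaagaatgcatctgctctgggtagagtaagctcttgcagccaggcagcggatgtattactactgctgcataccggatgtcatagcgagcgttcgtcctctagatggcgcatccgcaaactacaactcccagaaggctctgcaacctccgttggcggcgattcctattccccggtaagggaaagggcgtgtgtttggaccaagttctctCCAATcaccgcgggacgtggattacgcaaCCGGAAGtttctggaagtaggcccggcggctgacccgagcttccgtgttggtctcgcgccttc
The capitals in Srsf10 are a CCAAT box (bound by NF-Y) and the longer palindrome bound by ZBTB33. Those in Snrpf are CCAAT boxes on both strands. Snrnp70 holds the palindrome bound by NRF1 at 2 places, and Sf3b2 holds CCAAT and the ETS motif CCGGAAG. So the pair with the highest changes shared CCAAT, which Sf3b2 of the other pair also held.

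Promoter windows of the same length were found for 56 of the 64 genes, as 72 windows. The ETS motif CCGGAAG, or CTTCCGG on the other strand, was in 31.9% of the members' windows (18 genes), in 16.9% of the windows of tested loci and in 8.86% of all windows. Genes with it included Srsf4, Srsf5, Srsf7, Sf3a1, Sf3a2, Sf3a3, Sf3b2 and Sf3b6. Of the 18 genes, Srsf7, Sf3b6, Hnrnpf, Snrpb2, Snrpc and Snrpe had a positive log2 change and the others a negative one. CCAAT, or ATTGG, was in 44.4% of the members' windows, 37.7% of those of tested loci and 37.4% of all. The NRF1 palindrome, as capitalised in Snrnp70, was in 4.17%, 2.02% and 0.971%, and the ZBTB33 palindrome, as capitalised in Srsf10, in 1.39%, 0.968% and 0.466%. The YY1 motif AAGATGGCG, or CGCCATCTT, was in 1.39%, 3.003% and 1.40%, and the TATA box TATAAA, or TTTATA, in 9.72%, 6.73% and 13.6%. The members' windows held a median of 26 CpG dinucleotides, against 21 for tested loci and 7 for all windows. These matches describe the windows alone.

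Among the SR proteins, 6 of 11 genes had a positive change and 5 a negative one, and none passed. Their median log2 change was 0.12, and it was 0.01 without either cKO library, -0.01 without control 2 and 0.23 without control 1. Srsf1, the founding SR protein, was 89.99, 84.2 and 78.8 in controls 1 to 3 against 91.2 and 117 in cKO 1 and 2. Srsf3, the smallest SR protein, was 61.8, 65.5 and 65.5 in controls against 66.5 and 93.3 in cKO. Srsf7, a close relative of Srsf3 with a zinc knuckle, was 107, 102 and 99.01 in controls against 107 and 149 in cKO. In all of these cKO 1 lay at the upper edge of the controls, and cKO 2 alone stood clear of them. Log2 changes were 0.29 for Srsf1, 0.29 for Srsf3 and 0.30 for Srsf7 (SE 0.16, 0.18 and 0.18). Srsf2, also called SC35 and the most abundant SR gene, also had its highest value in cKO 2 but overlapped, at 213.6, 214.0 and 204.7 in controls against 211.0 and 284.8 in cKO.

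Of the remaining SR genes, none had both cKO libraries above every control. Srsf4 was 96.6, 138 and 109.9 in controls 1 to 3 against 97.8 and 68.1 in cKO 1 and 2, with the lowest log2 change of the family at -0.47 (SE 0.23). Its cKO 1 value was within 2 FPKM of control 1, so the groups overlapped. Srsf5 was 59.6, 62.6 and 61.9 in controls against 56.3 and 51.8 in cKO, and both cKO libraries lay below every control by a few FPKM (log2 change -0.18, SE 0.12). Srsf6, Srsf9 and Srsf11 had log2 changes of -0.13, -0.15 and -0.11 with overlapping groups. Srsf12, an antagonist of other SR proteins, varied most among controls, at 9.74, 2.67 and 5.62 against 7.56 and 4.67 in cKO.

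Srrm2, which encodes a scaffold of nuclear speckles, was 123, 104 and 103 in controls 1 to 3 against 92.96 and 80.5 in cKO 1 and 2. Srrm1, a splicing coactivator that partners it, was 57.5, 51.4 and 51.3 in controls against 49.8 and 39.4 in cKO. Both genes were below every control in both cKO libraries, with log2 changes of -0.34 and -0.26 (SE 0.15 each), and neither passed (limma adjusted p = 0.575 and 0.579). Tra2a and Tra2b, activators that bind exonic enhancers, were level. Tra2a was 101, 95.3 and 93.9 in controls against 93.7 and 102 in cKO, and Tra2b was 29.4, 30.5 and 31.7 against 30.6 and 34.2.

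Of the 20 hnRNP genes, 11 had a positive change and 9 a negative one, and none passed. The median log2 change was 0.10, and 0.02 without cKO 2. In 7 of them both cKO libraries lay above every control, and in 1 both lay below, where 13.4% and 15.6% of all tested loci did. Hnrnpa0, the most abundant of the 64 genes, was 457, 445 and 344 in controls 1 to 3 against 488 and 512 in cKO 1 and 2. Hnrnpab was 355, 415 and 383 in controls against 449 and 452 in cKO. Hnrnph3, a small relative of the hnRNP H proteins, was 50.8, 51.3 and 51.6 in controls against 57.2 and 65.9 in cKO. In these 3 genes both cKO libraries stood clear of the controls, and the log2 changes were 0.28, 0.23 and 0.26 (SE 0.20, 0.16 and 0.13). That of Hnrnpa0 was 0.15 without control 3, and that of Hnrnph3 was 0.16 without cKO 2.

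The other 4 of those genes differed by less. Hnrnpk, which binds cytosine-rich RNA, was 129, 116 and 127 in controls 1 to 3 against 131 and 155 in cKO 1 and 2. Hnrnpr was 19.7, 17.1 and 17.97 in controls against 21.2 and 20.5 in cKO, and Hnrnpll, known for the switch in Ptprc splicing in lymphocytes, was 48.2, 46.8 and 49.1 against 51.9 and 57.2. Hnrnpc, which binds uridine tracts, was 77.95, 82.9 and 77.2 in controls against 86.7 and 98.9 in cKO (log2 change 0.22, SE 0.13). Hnrnpc lies on chromosome 14 at 52073377 to 52104039, with its end 94.1 kb from Chd8 and 2 protein-coding genes, Rpgrip1 and Supt16, in between. The gene below every control was Hnrnpdl, at 132, 129.9 and 135 in controls against 124 and 127 in cKO, a log2 change of -0.07 that turned to 0.04 after quantile normalization. Hnrnpul2 had the lowest log2 change of the group, -0.33 (SE 0.20), and rested on 1 library: it was 61.2, 64.03 and 59.1 in controls, 59.95 in cKO 1 and 39.2 in cKO 2. The closest match between groups was Hnrnpd, which binds AU-rich RNA, at 62.3, 59.5 and 60.2 against 61.1 and 60.1. Hnrnpa1 and Hnrnpa3 shared their loci with the predicted genes Gm5643 and Gm6793, so these values may hold reads of either gene, and reads of other hnRNP genes may be shared with processed copies.

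U2AF, the heterodimer that recognises the end of an intron, had members with opposite signs. U2af2, whose protein binds the pyrimidine tract, was 68.8, 97.3 and 79.5 in controls 1 to 3 against 70.5 and 44.7 in cKO 1 and 2. Only cKO 2 lay below the controls (log2 change -0.52, SE 0.25, limma adjusted p = 0.575). U2af1, whose protein reads the terminal AG, was 9.40, 17.9 and 12.1 in controls against 14.8 and 13.02 in cKO, within the controls' range.

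In the U2 particle, 3 of 11 genes had a positive change and 8 a negative one (median log2 change -0.07, and 0.02 after quantile normalization). Besides Sf3b2, Sf3a1 lay below every control in both cKO libraries, at 35.01, 39.7 and 37.7 against 34.1 and 31.6 (log2 change -0.18, SE 0.13). Its partner Sf3a3 was 38.7, 57.3 and 55.1 in controls against 41.4 and 30.9 in cKO, so that control 1 lay among the cKO libraries (log2 change -0.46, SE 0.23). Sf3b6, which sits next to the branch-point adenosine, was 54.4, 59.2 and 60.03 in controls against 61.01 and 76.4 in cKO, both above every control, cKO 1 by about 1 FPKM. Sf3b1, the large branch-site subunit that is mutated in blood cancers, was 79.5, 68.3 and 74.5 in controls against 76.7 and 95.01 in cKO. Subunits of one complex thus had differences of both signs, and the cKO 2 values of Sf3b1, Sf3b6 and Snrpb2 lay above every control while that of Sf3b2 lay below.

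The Sm core, which all major particles but U6 share, had 4 genes with a positive and 3 with a negative change (median log2 change 0.06). Snrpb, the most abundant of them, was 183, 371 and 278 in controls 1 to 3 against 204 and 223 in cKO 1 and 2, and the controls spanned both cKO libraries. Snrpd2 was 87.97, 169.9 and 124 in controls against 121 and 68.1 in cKO, and its log2 change of -0.43 (SE 0.36) went to 0.21 without control 2 and cKO 2. Snrpe was 105, 126 and 120.2 in controls against 106 and 182 in cKO. In cKO 2 the genes of this ring lay on both sides of the controls, with Snrpf and Snrpe above all controls and Snrpd2 below them.

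Genes of the U1 particle, of U5 and the tri-snRNP, and of the minor spliceosome gave no group without overlap except for Snrnp25. Beside Snrnp70, the U1 genes Snrpa and Snrpc had log2 changes of -0.26 and 0.06. Snrpc was 38.4, 57.9 and 59.6 in controls 1 to 3 against 49.6 and 56.8 in cKO 1 and 2. Snrnp200, the helicase that unwinds the U4 and U6 RNAs, was 51.4, 61.4 and 55.9 in controls against 50.2 and 53.6 in cKO. Snrnp40 was 52.6, 79.2 and 72.03 in controls against 59.8 and 69.2 in cKO, and Snrnp27 was 48.8, 41.6 and 47.4 against 46.7 and 32.2. All 3 overlapped, and their log2 changes were -0.11, -0.06 and -0.23. That of Snrnp40 turned positive under 2 scalings.

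The minor spliceosome removes a rare class of introns, and its particle-specific genes were the least abundant group apart from single members. Snrnp25 was 22.02, 33.3 and 27.1 in controls 1 to 3 against 19.2 and 21.7 in cKO 1 and 2. Neither cKO library reached the lowest control, cKO 2 by under 1 FPKM (log2 change -0.39, SE 0.20, limma adjusted p = 0.575). Snrnp35 was 13.1, 18.6 and 15.9 in controls against 14.7 and 8.31 in cKO, so the difference was that of cKO 2. Snrnp48 was 11.3, 8.20 and 8.99 in controls against 9.36 and 10.2 in cKO.

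By role, the medians lay in different directions, and this division was drawn after the values were seen. The 35 SR, SR-related and hnRNP genes centred on a log2 change of 0.08 and the 29 U2AF and snRNP genes on -0.08. The median of all tested loci was -0.02. Not every role went with its set, as the median was -0.13 for the SR-related genes and 0.06 for the Sm core. No test was made of this division. Among the 27 snRNP genes control 2 was the highest control for 20 and control 1 the lowest for 23. Control 2 was the highest for 14 of the 35 SR, SR-related and hnRNP genes. For all 64 genes these counts were 36 with control 2 highest and 40 with control 1 lowest. The shares over all tested loci were not counted, so the order of the controls cannot be called particular to snRNP genes. Without control 1 the median of the U2 genes was -0.23, and without control 2 it was 0.05. The median of the U1 genes went from -0.26 to -0.44 without control 1 and to -0.04 without control 2.

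**Figure D3:**
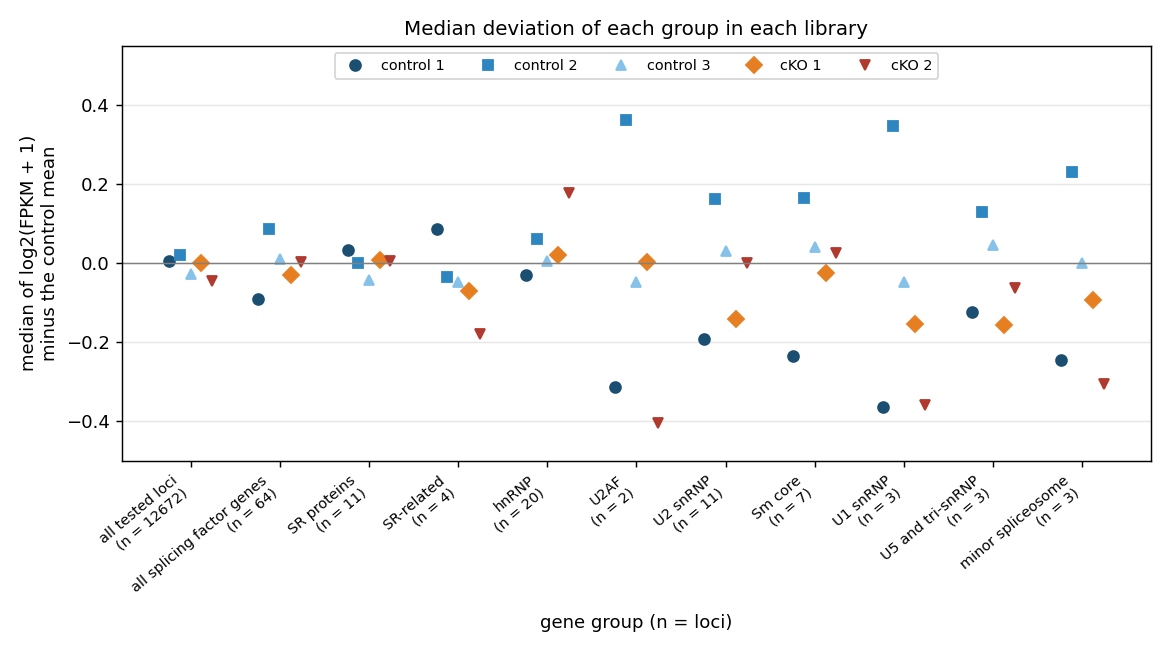
Median over each gene group of log2(FPKM + 1) minus the control mean, one point per library, with all tested loci at the left. For U1 genes the controls range from -0.36 in control 1 to 0.35 in control 2, and the cKO libraries, at -0.15 and -0.36, lie within or at the edge of that range.

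**Figure D4:**
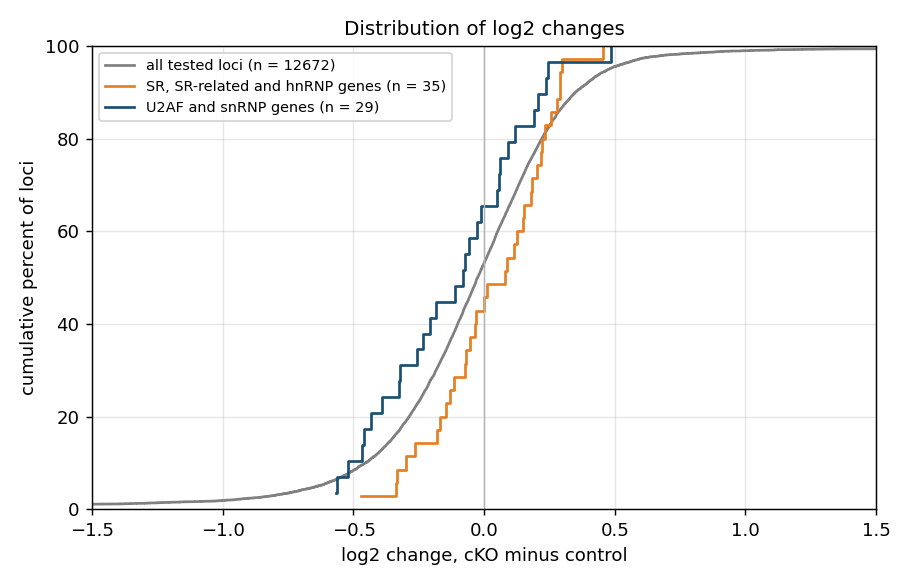
Cumulative percent of loci by log2 change, cKO minus control, for all 12672 tested loci (grey), the 35 SR, SR-related and hnRNP genes (orange) and the 29 U2AF and snRNP genes (blue); the axis is limited to changes within 1.5. The medians are -0.02, 0.08 and -0.08.

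Markers of cell types differed between libraries too. Genes of the dorsal cortex were present in every library, with all 7 above 0 and summed levels between 487 and 1051 in controls against 558 and 766 in cKO. The 10 markers of cycling cells summed to 232, 375 and 337 in controls 1 to 3 against 316 and 397 in cKO 1 and 2, so control 1 was lowest. The 6 markers of intermediate progenitors summed to 273, 607 and 383 in controls against 257 and 196 in cKO, with control 2 highest, and the 8 neuronal markers to 2697, 2032 and 2386 in controls against 2665 and 2073 in cKO. The 7 radial glial markers summed to between 1326 and 1849 in controls and 1385 and 1479 in cKO, but Nes, Hes1 and Vim lay below every control in both cKO libraries and Fabp7 above. Among the 7 dorsal markers Emx1 and Emx2 lay below and Tbr1 and Bcl11b above, and among the 8 neuronal markers Dcx and Snap25 lay above. The 7 ventral telencephalic markers summed to between 209.8 and 322 in controls against 421 and 463 in cKO, and the 10 microglial markers to between 30.7 and 49.1 against 98.3 and 102. In both cKO libraries, 6 of the 7 ventral and 9 of the 10 microglial markers lay above every control, and 4 of the 6 intermediate progenitor markers lay below. Of all tested loci, 13.4% lay above and 15.6% below. The 4 blood loci found summed to between 1176 and 1307 in controls and 1140 and 1211 in cKO, and the 5 vessel markers to between 62.3 and 75.2 against 77.7 and 86.8. Of the vessel markers, Rgs5 was 15.9, 11.4 and 13.1 in controls 1 to 3 against 19.4 and 27.4 in cKO 1 and 2, and the other 4 overlapped. None of these markers was at 0 in any library. The part of any of these in the values of the splicing genes was not tested, and in bulk tissue fewer cells of a type and less RNA per cell cannot be told apart.

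Other genes of the splicing pathway, from lists written with earlier results of these data known, also gave no call. Of 101 genes in 7 lists, 100 were tested, 0 had an adjusted p under 0.05 by limma, 3 were higher and 3 lower at an unadjusted p under 0.05, and the median log2 change was -0.07. Both cKO libraries lay above every control for 11 and below every control for 22, against the shares of 13.4% and 15.6% of all tested loci given above. Nonsense-mediated decay, which removes the transcripts with decay-targeting exons of SR genes, had 6 of 10 genes below every control and none above, with a median log2 change of -0.21. Smg5 was 31.4, 38.8 and 34.4 in controls 1 to 3 against 28.4 and 23.2 in cKO 1 and 2, and Upf3b was 20.4, 18.1 and 20.6 against 17.9 and 10.3. Upf3a was 26.9, 35.1 and 32.9 in controls against 27.2 and 10.3 in cKO, with cKO 1 within the controls. For each of the 3, cKO 2 was the lower of the cKO libraries.

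The remaining lists were mixed. Of 9 genes of the exon junction complex, which marks joined exons, 4 were positive and 5 negative. Acin1, a peripheral member, was 124, 168 and 136 in controls 1 to 3 against 111 and 48.9 in cKO 1 and 2 (log2 change -0.93, SE 0.36), while Sap18 was 4.96, 4.47 and 4.62 against 6.02 and 6.50. The 8 tested kinases of SR proteins had a median of -0.04, and among them Dyrk1a was 22.97, 20.4 and 18.96 in controls against 26.01 and 29.1 in cKO. The 31 tri-snRNP and PRP genes had a median of -0.03, the 21 genes of the Prp19-associated complex and the step factors -0.16, the 14 genes of snRNP assembly 0.03 and the 8 other proteins of the minor spliceosome -0.08. Among these, Lsm5 was 2.94, 3.16 and 4.90 in controls against 5.38 and 6.76 in cKO, Prpf38b was 31.9, 34.4 and 33.9 against 28.7 and 21.9, and Zmat5, a U11/U12 protein, was 28.6, 54.99 and 42.6 against 28.3 and 20.7. None of these passed over all loci (limma adjusted p = 0.575 for each).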

How the data were processed

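RNA was measured in 3 control and 2 cKO libraries, and 6 ATAC-seq samples were not analysed here. Per the submitters' processing notes, the series used CASAVA, TopHat, Cufflinks, Bowtie2 and MACS with mm10. The sources used here do not give their roles and versions, the strand setting or the annotation. The deposited table holds FPKM per locus and library. It also holds the authors' mean FPKM per group, log2 fold change, test statistic (a score), p-value and q-value, per the file headers. FPKM falls for all genes when a few take more of a library. A mean over the 5 libraries of 1 FPKM or more was required, and log2(FPKM + 1) was compared by limma 3.58.1 under R 4.3.3, with the variance trend and Benjamini-Hochberg adjustment over all 12672. Residual degrees of freedom were 3 and prior ones 2.49. On data simulated from these 12672 loci for cKO against control it called 39% of 100 loci changed 2-fold and 82% of 100 changed 4-fold, with 6 unchanged loci called. Members and lists were chosen with earlier results of these data known. Named genes were members with groups that did not overlap, the highest, the lowest and the most abundant of each role, and up to 3 genes of each other list with the smallest p. Srsf6, Srsf9, Srsf11, Sf3a2, Sf3a3, Sf3b1, Snrpb2, Snrpe, Snrpa, Snrnp200, Snrpg, Hnrnpd, Tra2a, the joined loci and the single marker genes were added after their values were seen. The alternatives were other pseudocounts, filters, scalings and moderation, a replicate block, and leaving out each library. All 64 genes matched RefSeq symbols on GRCm38.p6.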

Additional observations from a re-analysis of the deposited data

How the results depend on the processing

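In each alternative, 0 of the 64 genes had an adjusted p under 0.05, and their median log2 change stayed between -0.09 (without control 1) and 0.05 (quantile normalization). Leaving out 1 library at a time gave a range of -0.09 to 0.02. Genes higher at an unadjusted p under 0.05 went from 2 to 1 with centring on the library median, to 0 with summed-FPKM scaling, without a trend and with the replicate block, and to between 0 and 6 with 1 library left out (6 without cKO 1). Lower genes went from 0 to 1 with summed-FPKM scaling and to between 0 and 7 (7 without cKO 1, 3 without control 1). With 1 library left out, what remained of the cKO lay above every remaining control for 13 to 24 genes, with 24 without cKO 1. It lay below for 8 to 26, with 26 without control 1, 20 without cKO 1 and 11 without cKO 2. Over all loci the shares were 15.1% to 27.8% above and 19.4% to 34.7% below, since fewer libraries make such separation more frequent. With all libraries, quantile normalization gave 4 below, against 12.6% of all loci. Over all loci, 2 were called higher and 4 lower. The calls were 1 and 2 with the replicate block, 1 higher at a mean of at least 5 FPKM, 1 lower with a pseudocount of 5 FPKM and 1 lower without a filter, and 2 lower without a trend. With 1 library left out they were 2 to 29 higher and 2 to 12 lower, the lone library of an arm then being assumed to vary like the others. An alternative chosen after seeing the data left out control 2 and cKO 2, with 30.86% of all loci then above and 28.11% below. It gave 34 higher and 17 lower over all loci, and among the 64 genes 0 at an unadjusted p under 0.05 as higher, 18 above and 12 below.

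The sign of 8 of the genes named by the rule above turned in some alternative. Hnrnpdl was 0.040 and Snrnp40 0.035 after quantile normalization, and Snrnp40 was 0.00029 with summed-FPKM scaling. With libraries left out, 1 at a time or control 2 and cKO 2 together, Snrnp27 ranged from -0.50 to 0.027, Snrnp35 from -0.84 to 0.022, Snrnp40 from -0.23 to 0.063, Snrnp48 from -0.098 to 0.17, Snrpc from -0.14 to 0.17, Snrpd2 from -0.84 to 0.21 and U2af1 from -0.081 to 0.44. Genes printed outside that rule turned too, among them Srsf12 at -0.17 and Srsf6 at 0.006 without cKO 1. Without cKO 2, Srsf9 was 0.001, Srsf11 0.007 and Snrpe -0.14. The cause was not tested. The labels do not say that replicate numbers pair libraries. Deviations of same-numbered libraries had correlations of -0.07 and -0.11. For each control, the 2 cKO libraries gave values of equal size and opposite sign, so these correlations cannot decide whether libraries were paired. The block rests on the shared number alone. Depth is unknown, which limits what can be said of genes such as Srsf12.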

Other observations

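Some of the 64 genes are neighbours on GRCm38. Hnrnpd and Hnrnpdl, which encode related AU-rich element binding proteins, lie 54.4 kb apart on chromosome 5, with log2 changes of -0.001 and -0.07. Hnrnpll and Srsf7 lie 138 kb apart on chromosome 17, with 0.18 and 0.30, and both had each cKO library above every control. Hnrnpa0 and Hnrnpk lie 263 kb apart on chromosome 13, with 0.28 and 0.20, and were also both above. Snrpg and Snrnp27 lie 296 kb apart on chromosome 6, with -0.08 and -0.23, and both overlapped. No test was made of these pairs.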
